A study of Mus musculus with 6 samples.

Results

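The clustered protocadherins of GLUTag cells were examined, that is every protein-coding gene whose mouse symbol begins with Pcdha, Pcdhb or Pcdhg. The rule found 57 genes among the 54281 rows of the count table, namely 14 alpha, 22 beta and 21 gamma genes. GLUTag cells are a mouse line of enteroendocrine origin that releases the incretin GLP-1. The RNA came from 6 wells of a single condition, with no treatment labelled, grown for 48 h on Matrigel in low glucose (1 g/L) DMEM with 10% FBS. Wells 1, 2 and 3 were on plate 1 at passage 23 and the other 3 were on plate 2 at passage 27, and effects of plate and of passage cannot be told apart. The plate 2 columns could not be matched to single wells, and these libraries are called a, b and c by rising total. Nothing in the sources says that wells of a plate came from separate cultures, so p-values measure the spread between these wells.

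Protocadherins of the clustered kind are cadherin-like adhesion proteins that lie side by side in the genome. In the alpha and gamma clusters each gene has its own promoter and its own large first exon, which encodes the extracellular, transmembrane and proximal cytoplasmic parts, and this exon is spliced to constant exons that encode a common cytoplasmic end. The beta genes have a single large coding exon and no constant exons. In neurons each cell uses its own combination of promoters, CTCF and cohesin act in that choice, and the proteins bind their own kind on other membranes, which serves self-recognition of neurites. The so-called C-type genes at the end of the alpha and gamma clusters are used more uniformly among neurons.

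All 57 genes lie on the plus strand of chromosome 18 (GRCm38). The alpha genes span positions 36930184 to 37187661, the beta genes 37264938 to 37524479 and the gamma genes 37661793 to 37841873. The libraries were made with a kit that reads polyadenylated transcripts from their 3′ ends, so a count stands for a transcript, not for its length, and levels of genes were compared without division by length. In the longest coding transcripts of the 14 alpha genes, 2860 exon bases in 3 blocks were common to all members, and these blocks hold the 3′ end. The 21 gamma genes had 2116 bases in 3 blocks in common. The 22 beta genes had 0 bases common to all. The last 300 bases of the longest coding transcript were compared as sequences with the ends of the other members. They were shared with other members for 14 of 14 alpha genes, 21 of 21 gamma genes and 0 of 22 beta genes. When a window of 300 bases lying 50 bases before the end was sought anywhere in the other members' transcripts, 1 beta gene was shared too. This was Pcdhb21, whose end lies within Pcdhb22. Through further annotated transcripts, many of them retained introns, 3 alpha and 12 gamma genes also had an end sequence of their own. These were 2 and 11 genes when the window was sought anywhere.

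Depth was 21.4 to 36.5 M counts per library. Levels are given as CPM, the counts per M counts of the library total. The limit that a count of 0 sets is 3 counts, 0.0822 to 0.14 CPM by library, and covers counting error alone. For an alpha or gamma gene a 0 says no more than that no read was assigned to that row, since reads of a common end can be assigned to another member. Library b differed from its plate: among the 5031 genes that averaged 30 CPM or more, 354 lay over 2-fold below the average of libraries a and c, and 2 lay over 2-fold above it. Of the cell type markers, 7 of 7 enteroendocrine genes had over 3 counts in every library (Gcg, which encodes proglucagon, 3416 CPM), and so had 6 of 7 neuronal genes. This held for 1 of 5 epithelial, 1 of 4 glial, 1 of 6 fibroblast and 2 of 6 blood cell genes. The defining genes Epcam, Sox10, Col3a1 and Ptprc were at 0.0457, 0, 0 and 0.0322 CPM. Fewer cells with a transcript and less of it per cell cannot be told apart in these bulk libraries.

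The sum over a cluster does not depend on how the reads of a common end were divided within it. The alpha sum was 41.6, 35.7 and 38.2 CPM in the plate 1 libraries and 48.9, 54.8 and 51.4 CPM in libraries a, b and c of plate 2. The gamma sum was 33.0, 30.5 and 35.2 CPM on plate 1 and 42.9, 41.7 and 39.4 CPM on plate 2. The beta sum was 4.92, 3.45 and 5.56 CPM on plate 1 and 7.16, 5.66 and 8.96 CPM on plate 2, below the other sums in every library. The means were 45.1 ± 7.69 CPM for alpha, 37.1 ± 4.97 CPM for gamma and 5.95 ± 1.90 CPM for beta (SD, n = 6). Of all counts of clustered protocadherins, alpha thus held 51.1%, gamma 42.2% and beta 6.66% on average, and the share of alpha stayed between 48.4% and 53.6%. Without library b the means were 43.2, 36.2 and 6.01 CPM for alpha, gamma and beta.

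**Figure D1:**
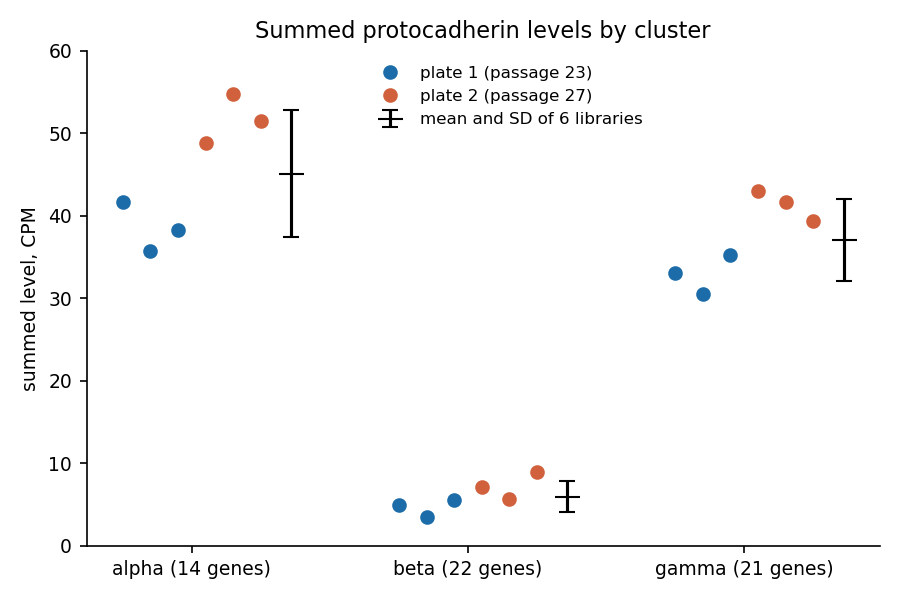
Summed level (CPM) of the alpha, beta and gamma protocadherins in each library, coloured by plate, with the mean and SD of the 6 libraries in black. The beta sums, at most 8.96 CPM, lie below every alpha and gamma sum, and the plate 2 points lie above the plate 1 points in each cluster.

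To compare the sums, the log2 ratio of CPM + 1 was taken in each library and tested over the 6 libraries by flipping signs in every way (exact permutation test, two-sided). Alpha was higher than beta in 6 of 6 libraries, with a mean log2 difference of 2.76 ± 0.27 (SD), which is a 6.76-fold ratio. Alpha was also higher than gamma in 6 of 6 libraries, but by 0.27 ± 0.11, with a smallest difference of 0.12. Beta was lower than gamma in 6 of 6 libraries, with a mean of -2.49 ± 0.27. The sum of all 57 genes, 88.2 ± 13.7 CPM, was lower than that of the 12 non-clustered protocadherins, 264.7 ± 7.78 CPM, in 6 of 6 libraries (-1.59 ± 0.22). Each comparison gave an exact p of 0.03125, the smallest that 6 libraries allow, and 0.03125 after Benjamini-Hochberg adjustment over the 4 comparisons. Counting just the rows with an annotated end of their own, which leaves 3 alpha and 12 gamma rows and drops Pcdha10, turned the difference of alpha and gamma to -1.38 (exact permutation p = 0.0625, adjusted 0.0833). That of alpha and beta fell to 0.54 (exact permutation p = 0.25, adjusted 0.25). The other 2 comparisons kept an exact permutation p of 0.03125 but also lost the threshold after adjustment (adjusted 0.0625). The alpha and gamma rows kept here can still hold reads of the common end, and all 22 beta rows were kept. This setting therefore does not isolate reads of separate ends, and no order of the clusters is drawn from it.

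The beta genes have end positions of their own and gave nearly whole counts: 4 of their 66 positive values were fractional by more than 0.005, all 4 of Pcdhb21 and Pcdhb22, whose exons overlap by 455 bases on the same strand. Pcdhb14 was the highest beta gene by mean. It had 56, 30 and 31 counts on plate 1 and 58, 60 and 164 counts on plate 2, or 2.27 ± 1.15 CPM (SD, n = 6). Library c, at 4.49 CPM, lay above the other 5, which ranged from 1.33 to 2.33 CPM, and without it the mean was 1.82 CPM. Pcdhb16 had 27, 14 and 33 counts on plate 1 and 32, 24 and 60 on plate 2 (1.14 ± 0.41 CPM). Pcdhb17 had 9, 14 and 22 counts on plate 1 and 52, 38 and 45 on plate 2 (1.06 ± 0.52 CPM). Pcdhb22 and Pcdhb20 followed with 0.40 ± 0.13 CPM and 0.22 ± 0.16 CPM. The range of Pcdhb14 over the libraries, 1.33 to 4.49 CPM, overlapped those of Pcdhb16 and Pcdhb17. It was the highest beta gene in 5 of 6 libraries and Pcdhb16 in the other, plate 1 replicate 3.

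Along the chromosome the beta counts were not spread evenly. The 9 genes from Pcdhb14 to Pcdhb22 at the 3′ side of the cluster held 95.8%, 100% and 98.3% of the beta counts on plate 1 and 90.5%, 97.1% and 97.2% on plate 2. The 13 genes from Pcdhb1 to Pcdhb13 together had 5, 0 and 2 counts on plate 1 and 19, 5 and 9 counts on plate 2. None of these 13 exceeded 5 counts in any library, and Pcdhb3, Pcdhb6, Pcdhb9 and Pcdhb11 had 0 in all 6. At this depth they were at or near the limit of detection. The division after Pcdhb13 was chosen after the values were seen, so it is given with no test. The longest coding transcript is also shorter on the 5′ side, with a median of 3501 bases in Pcdhb1 to Pcdhb13 and 5041 bases in Pcdhb14 to Pcdhb22, and how completely the 3′ ends of these genes are annotated was not tested.

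**Figure D2:**
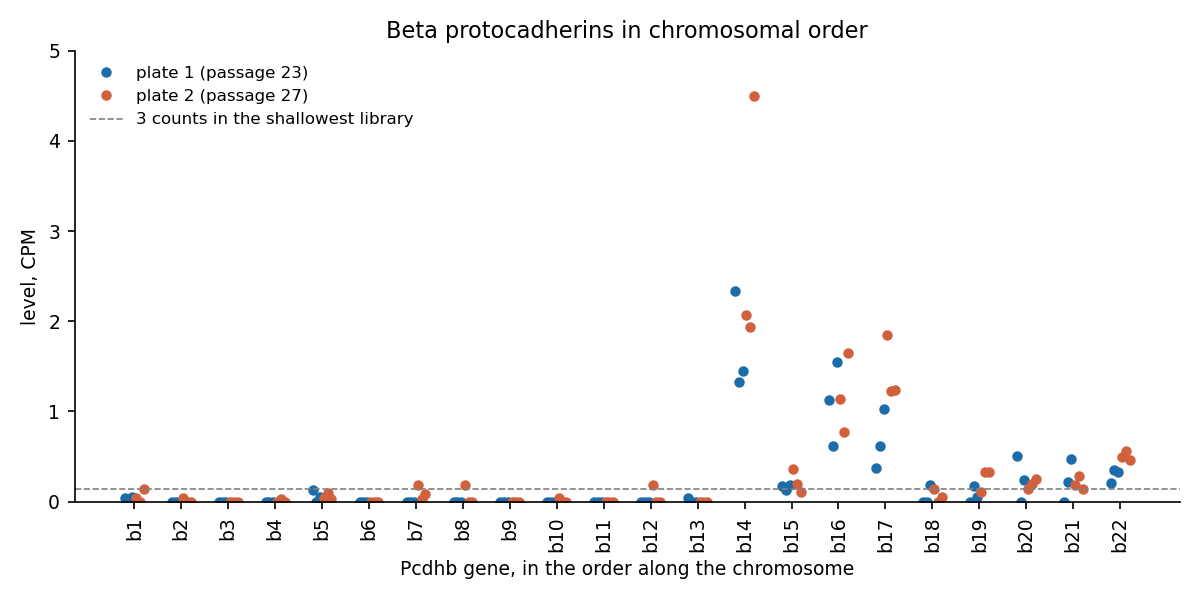
Level (CPM) of the 22 beta genes in their order along the chromosome, with a point for each library coloured by plate and a dashed line at 3 counts in the shallowest library (0.14 CPM). The points of b1 to b13 lie on or near the axis, and those of b14, b16 and b17 are the highest.

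Single alpha and gamma rows behaved differently from their sums. Of the 48 positive alpha values, 47 were fractional, and so were 29 of the 47 positive gamma values. Summed over the cluster, the alpha values came to within 0.002 of a whole count in every library. The gamma values came to within 0.002 of a whole count in 5 of 6 libraries. The exception, 1287.791 counts in library b, came to within 0.001 once the 6.21 counts of Pcdhgb8, a polymorphic pseudogene with the same constant exons, were added. Several members also had the same fractional value to the third decimal in a library. In library a of plate 2, Pcdha4, Pcdha5, Pcdha8 and Pcdha10 each had 113.573 counts. In library c, Pcdhga10, Pcdhga11 and Pcdhgc3 each had 110.072 counts. There were 9 such groups of tied fractional values in alpha and 2 in gamma. Whole values were left out of this count, since low whole counts, as in beta, often coincide. The values of single alpha and gamma genes are therefore given as the assigned shares of a common pool.

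Pcdha10 took the largest mean share of the alpha pool. Its assigned counts were 207, 493 and 278 on plate 1 and 114, 588 and 380 on plate 2, which is 12.8 ± 6.62 CPM (SD, n = 6). As a share of the alpha sum this was 29.8 ± 18.2%, from 8.28% in library a to 61.0% in plate 1 replicate 2. Pcdha4 had 325, 56.2 and 287 counts on plate 1 and 114, 334 and 14.9 counts on plate 2, and was the highest alpha gene in 2 libraries. Pcdha3 had 148, 165 and 44.6 counts on plate 1 and 464, 232 and 99.0 on plate 2. Pcdha8 had 0 counts in each plate 1 library and 114, 0 and 604 on plate 2, where library c placed it first. The leading alpha gene was thus 1 of 4 genes, depending on the library.

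The C-type alpha genes differed in the counts assigned to them. Pcdhac2 was assigned 148, 0 and 73.8 counts on plate 1 and 188, 283 and 380 on plate 2, or 5.98 ± 3.80 CPM. It shared its value with another member in 2 libraries, Pcdha3 in plate 1 replicate 1 (148.473 counts) and Pcdha10 in library c (379.514 counts). Pcdhac1 had 0 counts in all 6 libraries. Neither gene has an end of its own in the annotation, so Pcdhac1 cannot be called undetected and the genes cannot be ranked from these rows.

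The leading gene of the gamma pool held 27.9% to 93.3% of its counts by library, against 32.2% to 61.0% in the alpha pool. Pcdhga11, highest by mean, had 0, 0 and 487 counts on plate 1 and 541, 0 and 110 on plate 2, which is 19.5 ± 28.2% of the gamma sum. Without plate 1 replicate 3 its share was 10.5% and its mean 4.45 CPM instead of 7.51 CPM. Without library a its share was 14.5%, so its rank depends on single libraries. Pcdhgb2 had 0, 645 and 0 counts on plate 1 and 149, 143 and 36.4 on plate 2, and in plate 1 replicate 2 it took 93.3% of the gamma counts. Pcdhga4 had 247, 0 and 0 counts on plate 1 and 50.6, 709 and 255 on plate 2. Pcdhga1 was assigned 247, 0, 0, 148, 3 and 109 counts in the same order of libraries, and Pcdhgc3, a C-type gene, 247, 0, 165, 1, 237 and 110. Each of these 5 genes had 0 counts in at least 1 library and over 100 in another. Of the 21 gamma genes, 8 had 0 counts throughout.

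The other C-type gamma genes, Pcdhgc4 and Pcdhgc5, were counted in every library. Both have annotated transcripts with an end of their own, as do 10 other gamma genes. In Pcdhgc4 that transcript is a retained intron. In Pcdhgc5 the 100-base windows sought near these ends occurred in all 21 gamma genes. Pcdhgc4 had 33, 24 and 53 counts on plate 1 and 79, 94 and 212 counts on plate 2 (2.76 ± 1.69 CPM), and its values were whole in 5 of 6 libraries. Pcdhgc5 had 16, 14.002 and 28.015 counts on plate 1 and 33.011, 43.013 and 52.013 on plate 2 (1.10 ± 0.36 CPM), and its values were fractional in 4 of 6 libraries. They were the 2 gamma genes with over 3 counts in all 6 libraries. The coefficient of variation over the libraries was 33.1% for Pcdhgc5 and 61.3% for Pcdhgc4, against 91.4% to 168% for the other gamma genes averaging 1 CPM or more. On the opposite strand at Pcdhgc3, BC037039 had 3 to 17 counts, and the strand setting of the counting is not given in the sources used here.

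**Figure D3:**
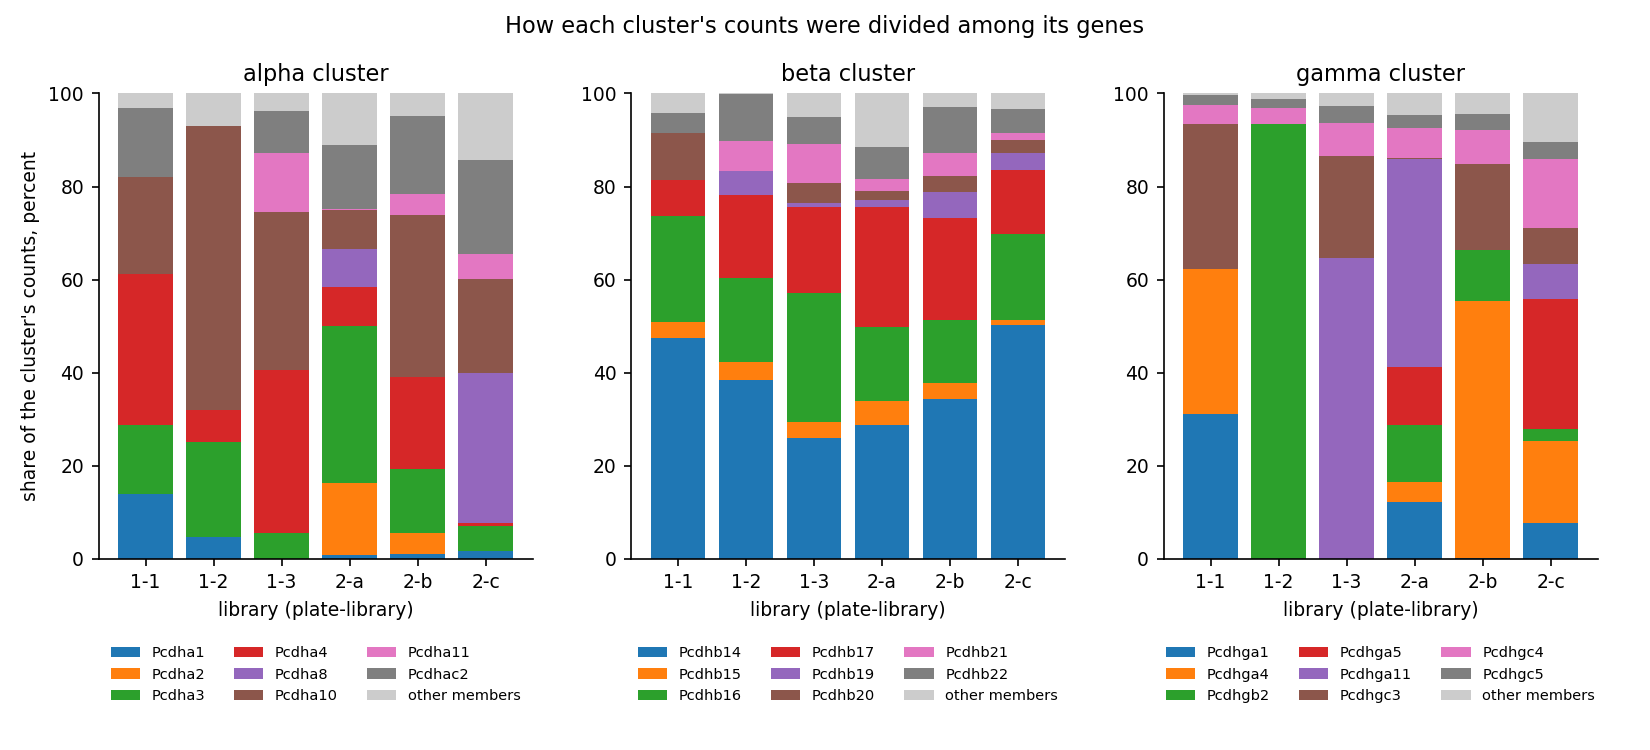
Share (percent) of each cluster's counts assigned to its genes in each library, labelled by plate and library, with the 8 genes of the highest mean share in colour and all others in grey. The beta panel keeps a similar make-up, with Pcdhb14 between 26.1% and 50.2%, whereas the alpha and gamma panels change from library to library, also within a plate.

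The difference in stability between the clusters can be described by the correlation of the members' log2(CPM + 1) between libraries. Over 15 pairs of libraries Pearson's r across the 22 beta genes was 0.833 to 0.981, with a median of 0.926. Across the 14 alpha genes it was 0.273 to 0.883 (median 0.443) and across the 21 gamma genes -0.0877 to 0.672 (median 0.347). For pairs of the same plate and pairs of both plates the medians were 0.927 and 0.926 in beta, 0.57 and 0.333 in alpha and 0.234 and 0.359 in gamma. These are descriptions: genes are not independent replicates, the beta genes near 0 in every library raise r, and the alpha and gamma values of a library share its pool.

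Between the plates the question was whether the level of any cluster or member differed with the plate or passage. In edgeR's quasi-likelihood test with each cluster summed to a single row, where 0.179% of the 15653 genes tested were called, none of the 3 sums passed an adjusted p of 0.05. The log2 fold change of plate 2 against plate 1 was 0.16 for alpha (standard error 0.12, Benjamini-Hochberg adjusted p = 0.580 from edgeR). It was 0.06 for gamma (standard error 0.12, edgeR adjusted p = 0.851) and 0.38 for beta (standard error 0.24, edgeR adjusted p = 0.483). On the CPM scale every plate 2 library was above every plate 1 library for each sum, which also held for 35.2% of all genes tested one by one. Scaling by the total moved the median log2 fold change of all genes to 0.30, from 0.03 with TMM scaling, and gave 0.42, 0.33 and 0.65 for alpha, gamma and beta (edgeR adjusted p = 0.0561, 0.103 and 0.117). The 95% intervals of the differences, with TMM scaling, were -0.12 to 0.43 for alpha, -0.20 to 0.33 for gamma and -0.16 to 0.92 for beta.

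Of the 57 members, 19 passed the filter on low counts, 7 alpha, 4 beta and 8 gamma genes. A single member passed the threshold, Pcdhgb5, where 0.185% of the 15669 genes tested were called and 0.0128% were called as higher on plate 2. Pcdhgb5 had 0 counts in the 3 plate 1 libraries and 50.6, 47.6 and 37.6 counts on plate 2, so it passed the filter on low counts through plate 2 alone and the call is no support for a difference on its own. The fitted log2 fold change was 8.22 (standard error 0.99, edgeR adjusted p = 0.0410), a value that depends on the prior count. Against a floor of 3 counts over the 3 plate 1 libraries, the assigned counts were 32.2-fold higher, but this floor covers counting error alone. It sets no lower limit on a change of the transcript, since reads of the common end can be assigned to another member. Pcdhgb5 has an annotated retained-intron transcript with an end of its own, but its 3 positive values were all fractional. In library a its value, 50.578 counts, was that of Pcdhga4 to the third decimal, and the gamma sum did not pass the test. When any library other than b was left out, Pcdhgb5 lost the threshold (edgeR adjusted p = 0.0766 to 0.208), while over all 6 omissions its log2 fold change stayed between 8.02 and 8.30. Without library b it kept it (edgeR adjusted p = 0.00128), and Pcdha5 and Pcdhga5 passed too. In that fit 3 of the 22 members tested were called, beside 1911 of all 15894 genes tested (12%). Pcdha5 and Pcdhga5 had 0 counts in the 3 plate 1 libraries and in library b. They thus passed the filter through plate 2 alone, and their calls are no support for a difference either. DESeq2 gave Pcdhgb5 no adjusted p.

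The other 18 members that could be tested did not pass. Within alpha the log2 fold change ran from -2.27 for Pcdha1 (standard error 1.31) to 1.19 for Pcdhac2 (standard error 1.12), and within gamma, Pcdhgb5 aside, from -1.70 for Pcdhgb2 (standard error 2.19) to 1.36 for Pcdhga4 (standard error 1.97). These gamma values rested on single libraries: Pcdhgb2 turned to 9.60 without plate 1 replicate 2, and Pcdhga4 moved to 11.1 without plate 1 replicate 1 and to 0.06 without library b. In refits without a library each, Pcdha1 ranged from -2.85 to -0.74 and Pcdhac2 from 0.61 to 2.11. The 4 tested beta genes had smaller errors, from 0.39 to 0.52. Pcdhb17 had a log2 fold change of 0.83 (edgeR adjusted p = 0.397) and Pcdhb16 of -0.14 (edgeR adjusted p = 0.919). Pcdhgc4, at 0.99 with a standard error of 0.39, had an unadjusted p of 0.0312 and an adjusted p of 0.255 from edgeR. Plate 2 was above plate 1 in every library, by CPM, for Pcdhac2, Pcdhb17, Pcdhb22, Pcdhgb5 and Pcdhgc4, 5 of the 19 tested, beside 35.2% of all genes tested. The share of the leading gene of a cluster was also compared between plates. For Pcdha10 it was 38.6 ± 20.5% on plate 1 and 21.1 ± 13.3% on plate 2 (SD, n = 3, exact two-sided permutation p = 0.4, adjusted 1), and for Pcdhb14 37.3 ± 10.8% and 37.8 ± 11.1% (exact permutation p = 1). For Pcdhga11 it was 21.6 ± 37.4% and 17.5 ± 24.0% (exact permutation p = 1). With 3 libraries against 3 the smallest p is 0.1.

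**Figure D4:**
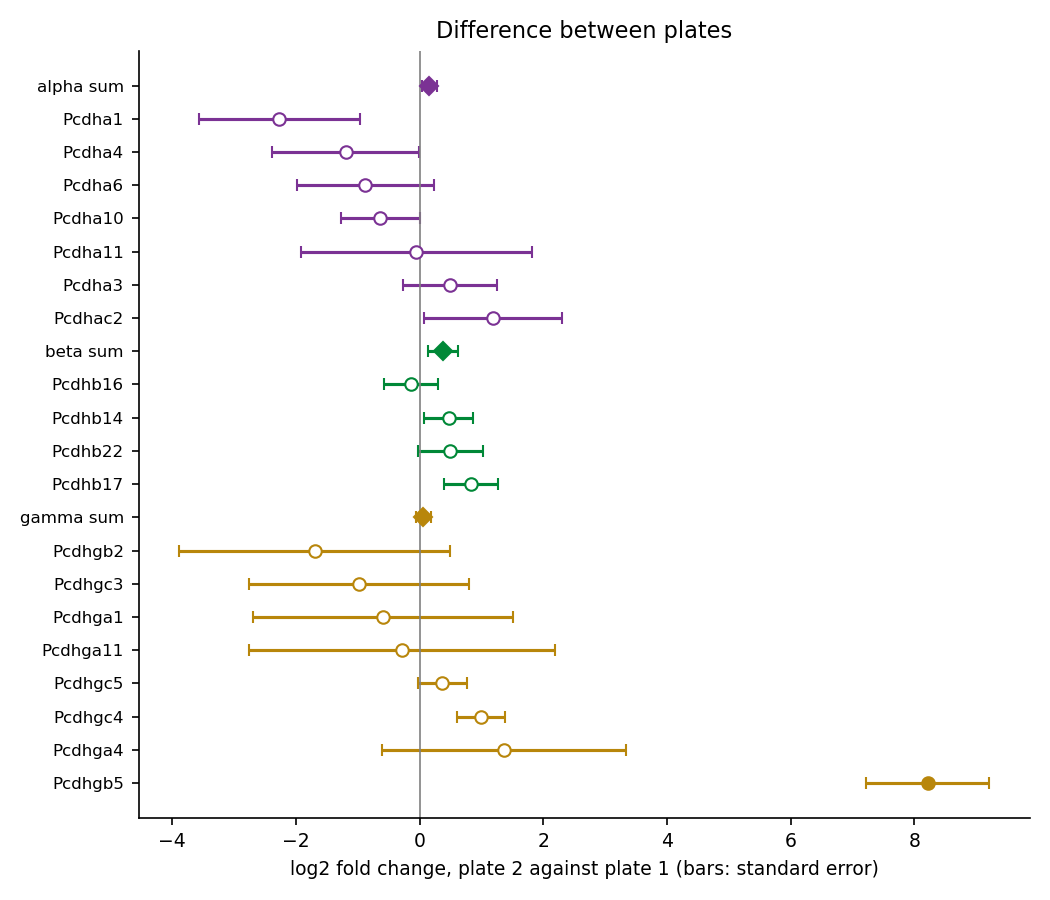
Log2 fold change of plate 2 against plate 1 with its standard error, for the 3 cluster sums (diamonds) and the 19 members tested (circles, filled for the member past the threshold). The sums lie between 0.06 and 0.38 with short bars, while single alpha and gamma genes scatter on both sides of 0 with bars of up to 2.47.

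Other protocadherins and cadherins of these cells set a scale for the sums. Pcdh17, a non-clustered protocadherin, had 168 ± 7.92 CPM (SD, n = 6), above the alpha and gamma sums in every library. Pcdh10 had 36.9 ± 3.95 CPM and Pcdh7 27.6 ± 9.23 CPM. Among the classical and related cadherins, Cdh2 (N-cadherin) had 111 ± 25.7 CPM, Cdh4 (R-cadherin) 92.5 ± 7.90 CPM and Cdh11 40.4 ± 17.2 CPM, whereas Cdh1, the epithelial E-cadherin, was at 0.0602 CPM. Of the 12 non-clustered protocadherins 7 could be tested between plates and of the 21 cadherins 9, and 0 of either list passed the threshold in edgeR, with 4 of each at an unadjusted p under 0.05, where 16.1% of all genes tested were. Their median log2 fold changes were -0.29 and 0.10, beside 0.03 for all genes tested.

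**Figure D5:**
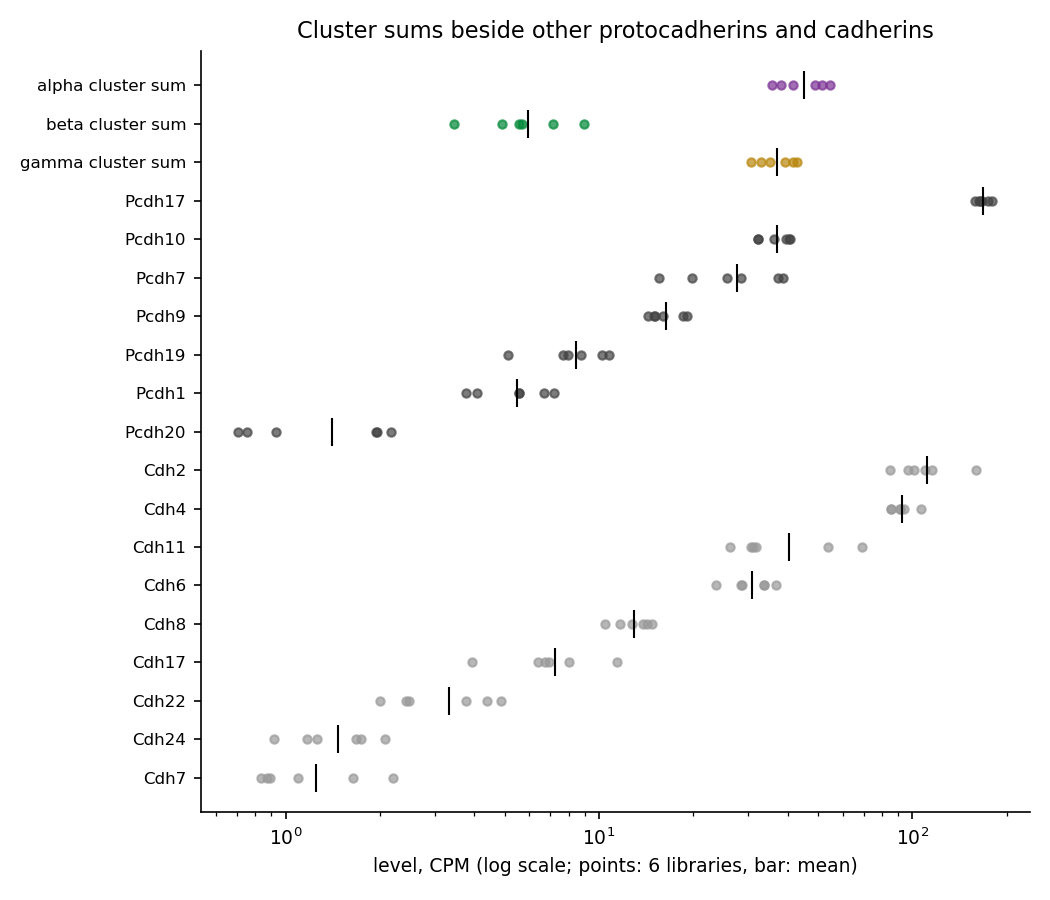
Level (CPM, log scale) of the 3 cluster sums and of the non-clustered protocadherins (dark grey) and cadherins (light grey) with a mean of at least 1 CPM, with a point for each library and a bar at the mean. The alpha and gamma sums lie near Pcdh10 and Cdh11, and the beta sum near Pcdh1.

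The factors known to act on protocadherin promoter choice were present throughout: 19 of 19 had over 3 counts in every library. The cohesin subunits Rad21, Smc1a and Smc3 led with 437 ± 53.6, 391 ± 39.0 and 303 ± 50.03 CPM. None of the 19 passed between plates in edgeR (2 at an unadjusted p under 0.05), and their median log2 fold change was 0.05. Of the proteins that act downstream of protocadherins, 15 of 15 were over 3 counts in every library, with Marcks at 281 ± 66.5 CPM, Brk1 at 186 ± 23.9 CPM and Cyfip2, a subunit of the WAVE complex that remodels actin, at 111 ± 7.60 CPM. All 7 enzymes that cleave protocadherins were counted too, with the γ-secretase subunits Psenen and Aph1a at 123 ± 11.9 and 46.3 ± 4.47 CPM and the sheddase Adam10 at 23.2 ± 8.58 CPM. In edgeR 0 of these 22 genes passed between plates, and 4 had an unadjusted p under 0.05, near the 16.1% of all genes tested. The median log2 fold change was 0.15 for the downstream proteins and -0.02 for the enzymes.

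Genes beside the clusters were taken as a reference for the locus. On the 5′ side of the alpha cluster, Zmat2, a splicing factor, had 138 ± 9.75 CPM and Hars, a histidyl-tRNA synthetase, 77.8 ± 10.1 CPM. Diaph1, a formin just beyond the gamma cluster, had 43.3 ± 8.39 CPM. Of 15 neighbours, 9 had over 3 counts in every library, and of the 9 tested 0 passed between plates in edgeR (3 at an unadjusted p under 0.05, beside 16.1% of all genes tested, median log2 fold change -0.16). Over these lists and the neighbours together, DESeq2 called 2 genes and limma-voom 0, beside 3.73% and 0.0638% of all genes tested. The annotated readthrough genes Gm42416, Gm37013 and Gm37388, which join alpha and gamma exons, had 0 counts in all 6 libraries.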

How the data were processed

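The 6 GLUTag libraries were 3′ mRNA-seq libraries of polyadenylated RNA. The authors trimmed the reads with Trim Galore 0.6.4, assigned them with Salmon 1.5.1 to transcripts of GRCm38 (GENCODE M23) leaving out the length correction, and totalled them by gene. These deposited expected counts had not been normalized. Reads that match several transcripts equally are divided among them by Salmon's model. Gene models were those of GENCODE M21 (54107 of 54281 identifiers found), and transcript ends were compared over 300 bases (100 and 500 as alternatives). The table has 2 rows with the symbol Pcdha11, and the one at the place of Pcdha10 in RefSeq (GRCm38) is called Pcdha10. Levels are CPM with a floor of 3 counts. Counts were rounded for edgeR 4.0.16 (quasi-likelihood test in its robust form, TMM, filterByExpr, Benjamini-Hochberg adjustment, threshold 0.05), which was tested on simulated data. Fits with DESeq2 1.42.0, limma-voom 3.58.1, other scalings and filters, and without each library were alternatives. R 4.3.3 and Python 3.11.15 were used. Cluster sums were compared with a pseudocount of 1 CPM.

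Members named are the 5 highest of each cluster, the C-type genes, any member past the threshold and the extremes of each cluster between plates. Of each pathway list the 3 highest are named. Of the cell type markers Gcg and the defining genes are named, and of the overlapping genes Pcdhgb8 and BC037039. Pcdha5, Pcdha11, Pcdhga5, Pcdhga10, Pcdhb21, Adam10, Cdh1 and the genes at 0 were named after their values were seen. The members and lists were chosen with earlier results of these data known. Promoter and protein sequences of these genes were not analysed here.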

Additional observations from a re-analysis of the deposited data

Results flagged for a closer look

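Among 22 values examined over the 6 libraries (totals, cluster sums and the named members with a mean of at least 10 counts), 4 had a single library far from the others (Dixon's gap ratio above its 95% critical value). For values chosen independently of their outlying libraries chance gives about 1 in 20, but that rate cannot be read against this set, since the extreme plate differences of each cluster, Pcdha1 and Pcdhgb2 among them, were in part what members were named by, and the alpha or gamma values of a library come from one pool of counts. Pcdha1 was at 5.78 CPM in plate 1 replicate 1 and at 0 to 1.66 CPM in the others. Pcdha8 was at 16.6 CPM in library c of plate 2 and at 0 to 4.04 CPM elsewhere. Pcdhgb2 was at 28.5 CPM in plate 1 replicate 2 and at 0 to 5.30 CPM elsewhere. Pcdhb14, which has an end of its own, was at 4.49 CPM in library c and at 1.33 to 2.33 CPM elsewhere. None of the 3 cluster sums had such a library.

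Signals outside the members were also seen at the locus. The pseudogene Pcdhgb8 had 6.21 counts in library b and 0 in the other 5 libraries. BC037039, antisense to Pcdhgc3, reached 17 counts.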

How the results depend on the processing

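The directions of the differences between the cluster sums held with a pseudocount of 0.1 or 5 CPM and without each library, where 5 libraries allow no exact p under 0.0625. With just the rows that have an end of their own, alpha minus gamma turned to -1.38, alpha minus beta was 0.54, beta minus gamma -1.92 and all minus non-clustered -2.65, and all 4 lost the threshold after adjustment. That setting leaves fewer alpha than gamma or beta rows, each with all counts assigned to it, so it does not isolate reads of separate ends. No cluster sum passed between plates under any alternative. The omission of a library gave 0.07 to 0.21 for alpha, 0.20 to 0.51 for beta and 0.02 to 0.10 for gamma.

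The count of members past the threshold, 1 in the fit reported, stayed at 1 (Pcdhgb5) with RLE scaling, totals, limma-voom and no filter. It became 0 with DESeq2, which gave Pcdhgb5 no adjusted p, and 0 with at least 10 counts in every library (Pcdhgb5 was not tested there). With alpha and gamma rows summed it was 0, and without a library each 0 to 3. Pcdhgb5 fell short (adjusted p = 0.0766 to 0.208) in 5 of 6 omissions, which leave fewer libraries. Of 235 refits of single members, 229 stayed on their side of the threshold or gave no adjusted p, but the sign of the log2 fold change turned in 21, for 7 of the 19 members. The largest turns came without a library, to 9.60 for Pcdhgb2, 10.6 for Pcdhga11, 9.18 for Pcdhga1 and 8.60 for Pcdha11. Over single gene rows, 584 genes were called with DESeq2, 1482 with totals (1411 higher on plate 2, against 2 of 29 with TMM), 10 with limma-voom, 545 with no filter and 0 to 1911 without a library each. With cluster rows summed these counts were 584, 1522, 9, 554 and 0 to 1932. Of the pathway lists, DESeq2 called 2 genes, totals 12, no filter 3, and the omission of a library 0 to 16. Of all genes tested, the same settings called 3.73%, 9.46%, 2.02% and 0 to 12%. The highest of these counts came without library b, and the cause was not tested.

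The labels number the wells 1 to 6 over both plates, but the column names restart at 1 on plate 2, and no source says that these numbers pair wells. Libraries of the same number deviated from their plate means with correlations of 0.0918, 0.101 and 0.14 across 13516 genes. Each library correlated best with its own number, which is a hint from the data and not the design. A fit with this replicate block, added after the data were seen, called 0 members and 5 genes (8 with cluster rows summed). The planned descriptions of promoters and proteins were not run. Depth limits the beta genes, where most have under 10 counts, and shared transcript ends limit single alpha and gamma genes at any depth.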
